A study of Mus musculus with 20 samples.

Results

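The genes of 7 ion pump subunits and isoforms are described here in ribosome-associated mRNA of the developing mouse hippocampus. They are the beta subunits of the sodium pump, Atp1b1, Atp1b2 and Atp1b3, and the plasma membrane calcium pumps, Atp2b1, Atp2b2, Atp2b3 and Atp2b4. They were chosen by symbol, as 7 of the 32245 rows of the deposited matrix of raw counts, and all 7 passed the filter on low counts. They were followed over 6 postnatal ages in all 20 libraries.

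All mice had the Rbp4-Cre driver with the RiboTag allele. In this allele Cre recombination puts an HA epitope on the ribosomal protein RPL22. Hippocampi were lysed, ribosomes were pulled down with anti-HA beads, and the poly-adenylated RNA that came with them was sequenced from stranded libraries. The labels call the cells granule cells, the excitatory neurons of the dentate gyrus, but the tag follows Rbp4-Cre and was not sorted further. Postnatal day 5 (P5) had 5 libraries and P7, P10, P15, P21 and P28 had 3 each. The labels name 3 batches, to which the letters A, B and C are given. P5 replicates 1 to 3, P10 and P15 belong to batch A, batch B held the other two P5 libraries (replicates 1 and 3) and P7, and batch C held P21 and P28. Ages of batch C therefore cannot be told apart from their batch when they are set against earlier ones. Whether the libraries of an age are from different animals is not stated in the labels, so p-values measure the spread between these libraries, which may be technical. No untagged or unselected RNA was analysed here.

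The sodium pump carries sodium out of the cell and potassium in, and so restores the gradients that action potentials and synaptic currents run down. Its alpha subunit does the transport, and the beta subunit, a glycoprotein that spans the membrane a single time, is needed for the alpha subunit to fold and reach the cell surface. The plasma membrane calcium pumps use ATP to expel calcium, are switched on by calmodulin, and return calcium to its low resting level after activity.

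In short, Atp1b1 and Atp2b2 rose together between P7 and P10 and stayed high to P28. Atp1b2 rose over the same days, and its libraries were lower again at P21 and P28, ages of another batch. Its fall from P15 to P21 did not pass in every fit, and that from P21 to P28 missed the threshold with all 20 libraries. Atp1b3 overlapped between ages up to P15 and was lower at P21 and P28, ages of another batch. Atp2b1 varied little. Atp2b3 differed between the batches at P5 and rose within batch A, a rise that did not pass in every fit. Atp2b4 had its lowest mean at P15, where its libraries overlapped those of P10 and P21. Its fall from P5 to P15 did not pass in every fit, and its joint test over all ages missed the threshold.

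The promoters of Atp1b1 and Atp2b2 are shown because these genes had nearly the same course. That of Atp2b1 is shown because it is a calcium pump gene whose changes from P5 were small at every age. Sequences are from the RefSeq table for GRCm38.p6, which had entries for 5 of the 7 genes (9 starts), and each is the 250 bases before a start, 5′ to 3′ on the strand of the gene. Capitals mark the GC box, GGGCGG or its complement CCGCCC, the motif read by SP1-family factors.
Atp1b1, chr1:164458356-164458605, minus strand: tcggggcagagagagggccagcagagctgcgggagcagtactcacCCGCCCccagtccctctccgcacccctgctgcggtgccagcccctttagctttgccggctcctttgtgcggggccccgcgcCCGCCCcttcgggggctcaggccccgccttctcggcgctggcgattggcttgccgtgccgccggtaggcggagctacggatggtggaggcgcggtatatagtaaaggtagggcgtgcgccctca
Atp2b2, chr6:114042081-114042330, minus strand, the first of 3 starts: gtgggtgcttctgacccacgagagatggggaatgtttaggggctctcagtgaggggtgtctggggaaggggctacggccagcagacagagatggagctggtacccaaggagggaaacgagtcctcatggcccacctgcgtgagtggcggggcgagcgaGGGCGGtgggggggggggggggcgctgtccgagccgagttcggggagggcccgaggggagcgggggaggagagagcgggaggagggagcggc
Atp2b1, chr10:98914902-98915151, plus strand, the second of 2 starts: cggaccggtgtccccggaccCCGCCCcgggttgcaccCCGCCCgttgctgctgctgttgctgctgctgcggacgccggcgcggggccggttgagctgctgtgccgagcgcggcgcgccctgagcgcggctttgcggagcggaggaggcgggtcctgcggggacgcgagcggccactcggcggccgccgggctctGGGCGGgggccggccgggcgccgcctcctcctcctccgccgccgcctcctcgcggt
All 3 windows are rich in GC, with 70.4% G or C in that of Atp1b1, 69.6% in that of Atp2b2 and 80.8% in that of Atp2b1. They hold 24, 16 and 41 CG dinucleotides, against a median of 6 over the 32851 windows of the table. The Atp1b1 window holds 2 GC boxes, the Atp2b2 window 1 and the Atp2b1 window 3, where 32.7% of all windows hold at least 1 on either strand. The windows of the other Atp2b2 starts, not printed, had 52.0% and 55.6% G or C, 6 CG dinucleotides each, and 0 and 1 GC boxes. The letters TATAAA (12.4% of all windows) and the cAMP response element TGACGTCA (1.5%), both searched on either strand, are in none of the 9 windows of these genes. CCAAT, held by 33.8% of all windows, occurs once in the Atp1b1 window and in no other of the 9. These are matches of letters and not measured sites. In the GENCODE annotation the printed Atp1b1 and Atp2b1 windows overlap no exon, and 138 bases of the printed Atp2b2 window lie in an exon of a transcript without coding sequence. Atp1b2 and Atp2b3 had no entry.

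Levels are given in CPM, each count relative to the library total, scaled by trimmed-mean (TMM) factors. Total counts ranged from 15.9 M to 24.9 M per library, at which 3 counts correspond to 0.12 to 0.189 CPM, far below every value here. Changes are fitted log2 differences from edgeR's quasi-likelihood test with a term for batch, with Benjamini-Hochberg adjustment over all 15373 genes tested and a threshold of 0.05. Through this term P10, P15 and P28 are compared with the P5 libraries of batch A, and P7 with those of batch B.

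Markers of cell types were read in the same libraries. All 8 granule cell markers, Prox1 and Calb1 among them, were present, with a summed level of 1502 to 1662 CPM at P5 and 2503 to 2572 at P28. Markers of other cells were present too. From P5 to P15, 8 of 12 oligodendrocyte lineage markers were higher and 3 lower (summed level 180.1 to 252 CPM at P5 and 1086 to 1888 at P15), 6 of 8 interneuron markers were higher and 1 lower (159.8 to 185 and 272 to 328), and 6 of 6 endothelial markers (41.9 to 79.2 and 17.0 to 23.1) and 5 of 5 Cajal-Retzius markers (116 to 158 and 34.3 to 39.3) were lower. Of 6 CA pyramidal markers, 1 was higher and 1 lower. Their summed level was 163 to 249 CPM at P5, 199 to 654 at P10 and 225 to 388 at P15. Of all genes tested, 31.6% were higher and 31.8% lower from P5 to P15. Microglia, mossy cell and choroid plexus markers were also present. The spectrin genes Sptan1 and Sptbn1 had a mean log2 CPM of 10.79 to 11.11 in the P5 libraries of batch A, 12.78 and 12.98 in those of batch B, 14.65 to 15.11 at P7 and 12.16 to 13.84 at P10 and later. The spectrin level and the summed astrocyte markers, described with Atp1b2, were each also fitted as a covariate. Both were lower in the P5 libraries of batch A than in every library of P10 and later. Fits with these covariates therefore cannot fully separate them from age.

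**Figure D1:**
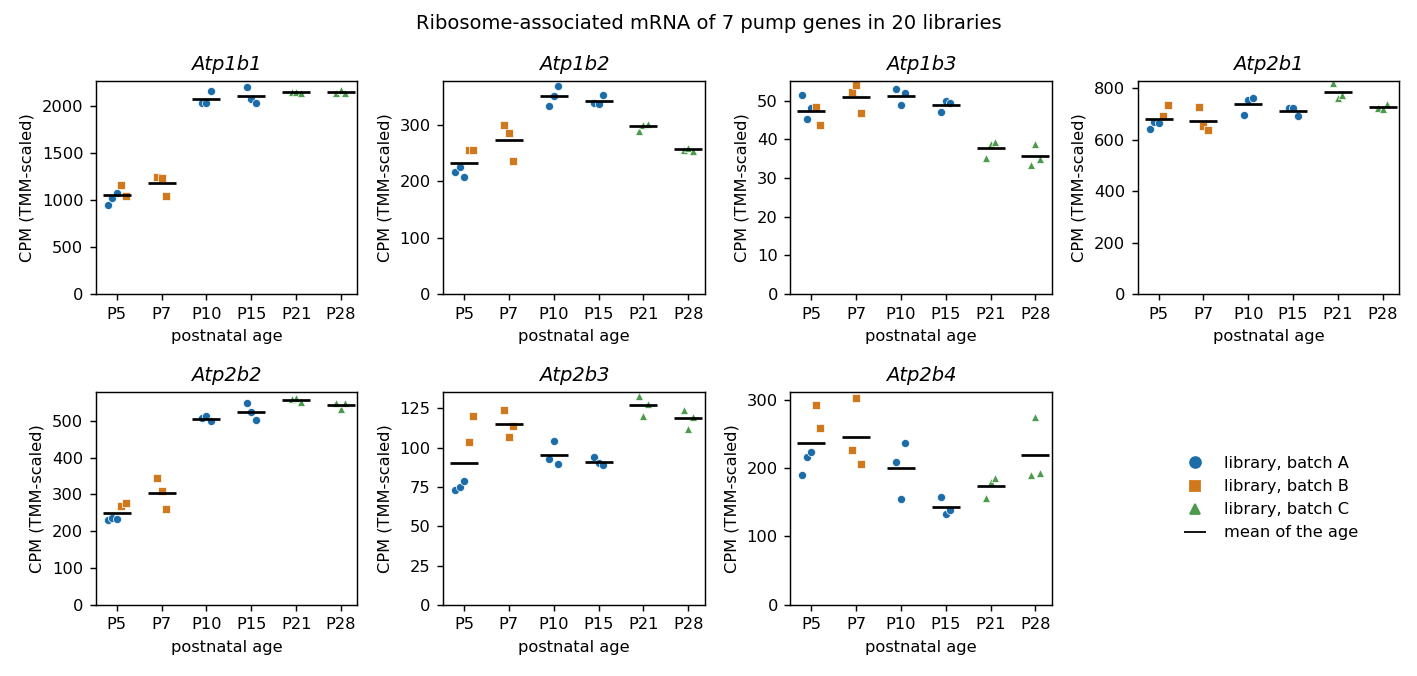
Each panel plots 1 gene, with the level in CPM from 0 upward against postnatal age, a point for each of the 20 libraries (shape and colour give the batch) and a bar for the mean of the age. Atp1b1 and Atp2b2 step up between P7 and P10, Atp1b2 peaks at P10 and P15, and the P5 libraries of batch B sit above those of batch A for Atp2b3.

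Atp1b1 encodes the beta subunit that neurons express most. At P5 it measured 952, 1026 and 1076 CPM in batch A and 1159 and 1044 in batch B. At P7 it measured 1249, 1241 and 1048. From P10 on all libraries stood close to each other. P10 gave 2037, 2039 and 2162, P15 gave 2207, 2078 and 2036, P21 gave 2153, 2151 and 2146, and P28 gave 2137, 2177 and 2140. No library of P10 or later overlapped any of P5 or P7, and the lowest of them exceeded the highest earlier library. The change from P5 to P10 was 1.03 on the log2 scale (SE 0.07, adjusted p = 1.6e-12), and to P15 it was 1.05 (SE 0.07, adjusted p = 8.1e-13). P7 against P5 gave 0.10 (SE 0.07, adjusted p = 0.43), and the step from P7 to P10 gave 0.93 (SE 0.10, adjusted p = 9.1e-08). After P10 its level did not pass the test at any step, with changes of 0.02, 0.03 and 0.00. Atp1b1 lies on chromosome 1 (mm10, 164437109 to 164458355, minus strand), and 575 bases of its exons are shared with exons of Nme7 on the other strand. Nme7 had 6533 counts over all libraries, against 636618 for Atp1b1.

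Atp1b2, known as the adhesion molecule on glia, is found on astrocytes and also in neurons (chromosome 11, mm10, 69599736 to 69605942, minus strand). Its P5 libraries measured 217, 225 and 208 CPM in batch A and 255 and 256 in batch B. The P7 libraries stood at 299.6, 286 and 236. The level was highest at P10, with 335, 352 and 370.2, and at P15, with 339, 337 and 354. It was then lower, with 290.3, 301 and 303 at P21 and 257, 260.2 and 254 at P28, and the libraries of P15, P21 and P28 did not overlap from one age to the next. The changes from P5 were 0.70 at P10 (SE 0.07, adjusted p = 1.7e-09) and 0.66 at P15 (SE 0.07, adjusted p = 3.4e-09). At P7 the change was 0.10 (adjusted p = 0.43), and without P7 replicate 3 it was 0.20 and passed (adjusted p = 0.03), as it did without the batch term (0.24, adjusted p = 0.02). From P15 to P21, ages of different batches, it fell by 0.20 (SE 0.07, adjusted p = 0.02). That call was lost without the batch term (adjusted p = 0.071), without P15 replicate 3 (adjusted p = 0.055) or P21 replicate 1 (adjusted p = 0.068). Within batch C the change from P21 to P28 was -0.21 (SE 0.07, adjusted p = 0.17), and it passed with batch C fitted alone (adjusted p = 0.012) or without P7 replicate 3 (adjusted p = 0.047). Its P28 libraries overlapped those of P5, and the fitted change across the whole span of 0.25 (SE 0.07, adjusted p = 0.0018) was 0.12 with total counts as the scale (adjusted p = 0.059) and 0.15 without the batch term (adjusted p = 0.078).

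Astrocyte markers moved with Atp1b2 in part, and not all in one direction. The summed level of the 11 astrocyte markers in each library (among them Aqp4, Gfap and Gja1, none of them at 0) was 671 to 719.6 CPM at P5 and 962 to 1178 at P7. P10 had 912 to 1292, P15 1249 to 1554, P21 1379 to 1679 and P28 922 to 1165. Of the 11 markers, 5 were higher and 0 lower at P7 against P5, 3 higher and 3 lower at P10 against P5, 5 and 2 at P15 against P5, and 4 and 6 at P28 against P5. From P7 to P10, where Atp1b2 rose, 1 was higher and 5 were lower. Of all genes tested, 11.0% passed in either direction at P7 against P5, 61.4% at P10, 63.4% at P15 and 71.6% at P28. From P7 to P10 42.8% did. With the astrocyte sum as a covariate, the Atp1b2 change from P5 was 0.64 (adjusted p = 6.9e-05) at P10 and 0.57 (adjusted p = 0.0062) at P15, both past the threshold, while the P28 change missed it (0.20, adjusted p = 0.081). The astrocyte sum did not overlap between P5 and any later age, so this fit cannot fully separate it from age. In bulk RNA, fewer cells of a type and less RNA per cell cannot be told apart.

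Atp1b3 (chromosome 9, mm10, 96332655 to 96364442, minus strand) encodes the beta subunit found in most tissues, and per kilobase it was the lowest of the 3. Its 5 libraries at P5 measured 51.4, 45.2, 48.1, 48.5 and 43.8 CPM. The P7 libraries measured 52.3, 54.1 and 46.7, those of P10 53.0, 48.9 and 51.9, and those of P15 47.0, 49.9 and 49.5. These 4 ages overlapped throughout, and the change from P5 to P15 was 0.02 (SE 0.07, adjusted p = 0.84). At P21 the libraries measured 35.2, 38.8 and 39.3 and at P28 33.5, 38.9 and 34.9, all below every earlier library. The change from P15 to P21 was -0.37 (SE 0.07, adjusted p = 0.00046) and that from P5 to P28 was -0.43 (SE 0.07, adjusted p = 1.3e-05). Both set batch C against batch A, and age and batch cannot be told apart in them.

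Atp2b1 (chromosome 10, mm10, 98914406 to 99026143, plus strand) is the calcium pump expressed in nearly every cell. Its 20 libraries ran from 638 to 819 CPM, with means of 680.5 ± 34.9 at P5 (SD, n = 5), then 672 ± 47.7 for P7, 737 ± 35.2 for P10, 713 ± 18.7 for P15, 785 ± 30.8 for P21 and 726 ± 11.1 for P28 (SD, n = 3 each). The P10 and P15 libraries lay above the P5 libraries of batch A, by small amounts. The change from P5 was 0.16 at P10 (SE 0.06, adjusted p = 0.014), and at P15 it was 0.11 and missed the threshold (SE 0.06, adjusted p = 0.075), though not without P7 replicate 1 (0.12, adjusted p = 0.045). The P10 call was lost without P5 replicate 1 of batch A, P10 replicate 2 or P10 replicate 3 (adjusted p 0.064 to 0.085), and with total counts as the scale the change was 0.03 (adjusted p = 0.61). The P28 difference of 0.14 (SE 0.06, adjusted p = 0.026) was lost without any 1 of the 3 P28 libraries, without P5 replicate 1 or 3 of batch A, and with total counts (0.02). Without the batch term both calls were lost (0.12 at P10, adjusted p = 0.086, and 0.09 at P28, adjusted p = 0.15).

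Atp2b2 is a calcium pump of neurons and sensory hair cells that works fast and at low calcium. The P5 libraries measured 232, 236 and 235 CPM in batch A and 267 and 276 in batch B, and P7 measured 344, 308 and 261. At P10 the values were 508, 512 and 499, and at P15 549, 526 and 502. At P21 they were 559, 563 and 552 and at P28 549.6, 532 and 548. As for Atp1b1, every library from P10 on stood above every library of P5 and P7. The changes from P5 were 1.11 at P10 (SE 0.07, adjusted p = 5.6e-13), 1.17 at P15 (SE 0.07, adjusted p = 1.6e-13) and 1.22 at P28 (SE 0.07, adjusted p = 3.7e-14). P7 against P5 gave 0.16, which did not pass (SE 0.07, adjusted p = 0.17), but did without P7 replicate 3, the lowest of its age (0.26, adjusted p = 0.0037) and without the batch term (0.29, adjusted p = 0.0049). The step from P7 to P10 was 0.95 (SE 0.10, adjusted p = 8.9e-08). Atp2b2 lies on chromosome 6 (mm10, 113743831 to 114042613, minus strand).

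Atp2b3 is a calcium pump found mainly in brain, on the X chromosome (mm10, 73503086 to 73571005, plus strand). At P5 it measured 73.0, 74.9 and 78.9 CPM in batch A but 104 and 120.0 in batch B, a difference of 0.56 inside 1 age (SE 0.08, adjusted p = 5.5e-05). Of the 7 genes, Atp2b3 and Atp1b2 (0.24, SE 0.07, adjusted p = 0.037) differed between the batches at P5, where 10.1% of all genes tested did. At P7, in batch B, Atp2b3 measured 124, 107 and 114. At P10 and P15, in batch A, it measured 92.6, 104 and 89.4 and then 93.8, 90.4 and 89.0. At P21 and P28, in batch C, it measured 133, 120.0 and 128 and then 124, 112 and 119.8. Inside batch A the P10 and P15 libraries stood above those of P5, by 0.34 (SE 0.07, adjusted p = 0.00023) and 0.27 (SE 0.07, adjusted p = 0.0018). Without the batch term these changes were 0.08 and 0.01, and with total counts the P15 change was 0.15 (adjusted p = 0.07). The P10 libraries lay below all P7 libraries, while the fit with the batch term gave 0.30 (SE 0.10, adjusted p = 0.024) and the fit without it -0.27 (adjusted p = 0.13), so no direction is given for that step. P21 exceeded P15 by 0.48 (SE 0.07, adjusted p = 1.4e-05), across batches. P28 exceeded the P5 libraries of batch A by 0.65 (SE 0.07, adjusted p = 1.1e-08), again across batches. The P28 libraries overlapped the P5 libraries of batch B, and without the batch term the P28 change was 0.395 (adjusted p = 0.009).

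Atp2b4 is a widely expressed calcium pump of chromosome 1 (mm10, 133699457 to 133801041, minus strand), and its libraries spread widely within an age (SD 39.9 CPM at P5, 51.3 at P7 and 47.8 at P28). At P5 it measured 189.8, 216 and 224 CPM in batch A and 292 and 259 in batch B, and at P7 227, 303 and 206. At P10 it measured 209, 154 and 237, and at P15 158, 133 and 138. The P15 libraries lay below the P5 libraries of both batches, with a change of -0.55 from P5 (SE 0.18, adjusted p = 0.017). That call was lost without P5 replicate 3 of batch A (-0.51, adjusted p = 0.052) or P15 replicate 2 (-0.51, adjusted p = 0.057). At P21 it measured 157, 179 and 186, and at P28 190.5, 274 and 193. The P28 libraries lay above those of P21 without overlap, but the change of 0.33 did not pass the test (SE 0.18, adjusted p = 0.48) and was 0.14 without P28 replicate 2 (adjusted p = 0.88). The step from P10 to P15 was -0.49 (adjusted p = 0.15) and passed the test without P10 replicate 2 (-0.64, adjusted p = 0.044). From P5 to P28 the change was 0.06 (SE 0.18, adjusted p = 0.77).

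With an F test over the 6 ages jointly, 6 of the 7 genes passed, as did 79.7% of all genes tested. Atp2b4 did not (adjusted p = 0.06). From P5 to P10, 5 genes rose and none fell, where 61.4% of all genes tested passed and 30.8% passed as higher. From P5 to P15, 4 rose and 1 fell, against 63.4% of all genes in either direction (31.6% higher and 31.8% lower), and the median change of the 7 was 0.27 beside -0.02 over all genes. The number called is thus near the share of all genes in both comparisons. From P7 to P10, 5 passed as higher, among them Atp2b3, whose direction depended on the batch term, where 42.8% of all genes passed, 22.5% as higher. The Atp2b1 call there (0.25, SE 0.08, adjusted p = 0.019) was lost without the batch term (0.13, adjusted p = 0.088), and its P7 and P10 libraries overlapped. Leaving out P5 replicate 1 of batch A, P5 replicate 3 of batch B, P7 replicate 2 or P10 replicate 3 also ended that call (adjusted p 0.05 to 0.095). From P15 to P21, Atp2b3 passed as higher and Atp1b2 and Atp1b3 as lower, where 28.8% of all genes passed (14.0% higher and 14.8% lower). From P5 to P28, 5 rose and 1 fell, where 71.6% of all genes passed (35.2% higher and 36.4% lower).

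At 3 steps no gene of the 7 passed edgeR's test. These were P5 to P7, where 11.0% of all genes passed, P10 to P15, where 4.36% did, and P21 to P28, where 0.254% did. These counts over all genes depended on single libraries. The 1698 genes of P5 to P7 numbered 518 when P5 replicate 1 of batch B was left out and 1020 when replicate 3 of that batch was. The 670 genes of P10 to P15 ranged from 108 without P10 replicate 3 to 1473 without P10 replicate 2, and the 39 of P21 to P28 from 9 without P28 replicate 2 to 55 without P7 replicate 3. At an unadjusted p below 0.05 each of these steps had 1 of the 7 genes: Atp2b2 at P7 (unadjusted p = 0.037 by edgeR), Atp2b4 at P15 (0.02) and Atp1b2 at P28 (0.0031). Of all genes tested, 25.0%, 20.4% and 12.7% were below that p at the 3 steps, so 1 of 7 is near or below the background. DESeq2 called 0 of the 7 at each of the 3 steps. The libraries of P21 and P28 nonetheless did not overlap for 4 genes, Atp1b2, Atp2b1, Atp2b2 and Atp2b4, where 22.0% of all genes tested did not overlap.

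**Figure D2:**
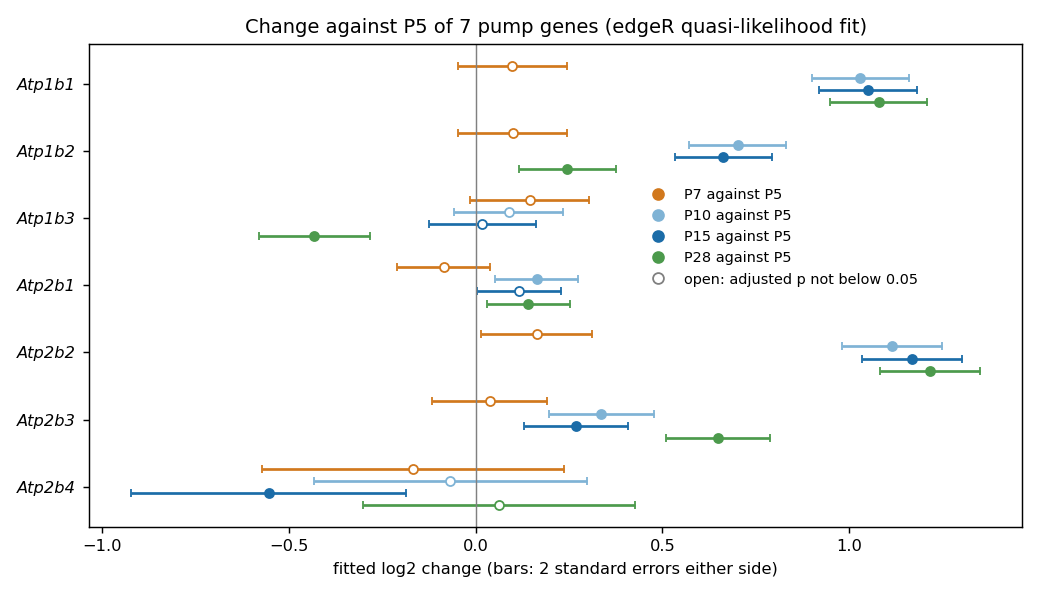
The fitted log2 change against P5 (horizontal axis) is plotted for each of the 7 genes at P7, P10, P15 and P28, with bars of 2 standard errors on either side and open points where the adjusted p was not below 0.05. The points for Atp1b1 and Atp2b2 at P10, P15 and P28 lie between 1.03 and 1.22, and those for P7 lie near 0 in all 7 genes.

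Levels of different genes can be compared only per length, and they are given here as CPM per kilobase of annotated exon. At P5 the order was Atp1b1 at 341 ± 24.5, Atp1b2 at 56.9 ± 5.41 and Atp2b1 at 44.7 ± 2.29 (SD, n = 5 each). Then came Atp1b3 at 19.8, Atp2b2 at 19.7, Atp2b4 at 19.3 and Atp2b3 at 18.7, whose libraries overlapped. The order of these 4 depended on the batch. In batch A their P5 means were 20.19, 18.54, 17.14 and 15.68, an order kept in each of its libraries. In batch B the means were 19.31, 21.55, 22.5 and 23.18, so no single order is given for P5. At P28 the order was Atp1b1 at 698 ± 7.18, Atp1b2 at 62.9 ± 0.731, Atp2b1 at 47.7 ± 0.728, Atp2b2 at 43.1 ± 0.745, Atp2b3 at 24.6 ± 1.32, Atp2b4 at 17.9 ± 3.90 and Atp1b3 at 14.96 ± 1.17 (SD, n = 3 each). Only Atp2b4 and Atp1b3, the last 2 of that order, overlapped. Atp2b2 thus moved from the low group to a level close to that of Atp2b1.

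**Figure D3:**
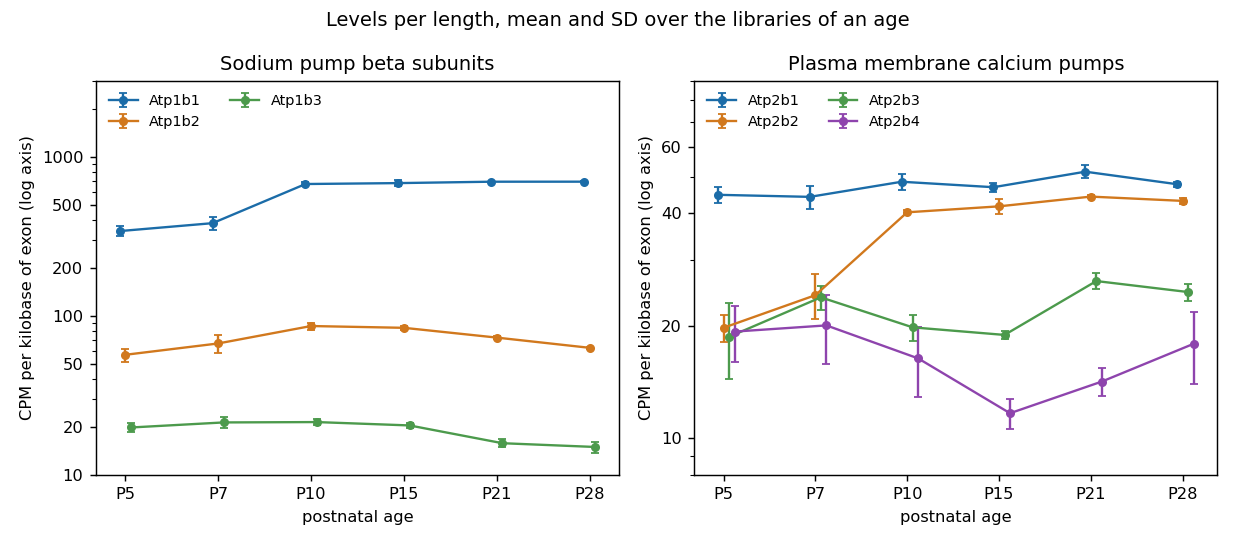
The level in CPM per kilobase of exon (log axis) is plotted against postnatal age for the 3 beta subunits on the left and the 4 calcium pumps on the right, as the mean with its SD over the libraries of an age (n = 5 at P5, n = 3 at the other ages). Atp1b1 is the highest at all ages, and the Atp2b2 line climbs from 19.7 at P5 to 40.2 at P10, next to Atp2b1 at 48.5.

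As a share of the summed per-kilobase level of the 3 beta subunits, Atp1b1 made up 81.6% ± 1.05 at P5 (SD, n = 5), 86.7% ± 0.709 at P15 and 89.97% ± 0.116 at P28 (SD, n = 3 each). The share of Atp1b2 went from 13.6% to 10.7% and 8.11%, and that of Atp1b3 from 4.77% to 2.60% and 1.93%. Among the 4 calcium pumps, Atp2b1 made up 43.9% ± 2.62 at P5 (SD, n = 5) and 35.8% ± 0.839 at P28 (SD, n = 3). Atp2b2 made up 19.3% ± 0.520 at P5, 32.2% ± 1.02 at P10 and 32.3% ± 0.901 at P28. Atp2b4 went from 18.8% ± 1.58 at P5 to 9.80% ± 0.659 at P15 and 13.4% ± 2.77 at P28. The share of Atp2b3 was 18.1% ± 2.21 at P5, 15.9% ± 0.168 at P15 and 18.5% ± 1.17 at P28. All these P5 shares pool batches A and B, and their SDs include the difference between batches. Those of P28 are from batch C, so age and batch cannot be told apart in them.

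Ratios inside a library need no scaling factor, and they were tested over P5, P10 and P15 of batch A with 3 libraries each. The test was an exact permutation test of the F statistic (1680 arrangements, smallest possible p 0.0036), adjusted over the 9 pairs within a family, and 6 pairs passed. The log2 ratio of Atp2b1 to Atp2b2 per kilobase was 1.20, 1.24 and 1.23 in the P5 libraries of batch A, 0.19, 0.28 and 0.34 at P10 and 0.13, 0.19 and 0.19 at P15 (exact p = 0.011, adjusted p = 0.032). Atp2b1 was thus 2.33 times as high as Atp2b2 at P5 and 1.12 times as high at P15. In the other batches this log2 ratio was 1.103 and 1.138 at P5, 0.81, 0.81 and 1.02 at P7, and between 0.12 and 0.28 in the 6 libraries of P21 and P28.

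The ratios of Atp2b2 to Atp2b3 and to Atp2b4 rose over the same ages by 0.90 and 1.72 on the log2 scale, and each had an exact p = 0.0036, the smallest the design can give (adjusted p = 0.016). The log2 ratio of Atp2b2 to Atp2b4 was 0.25, 0.08 and 0.02 at P5, 1.24, 1.69 and 1.03 at P10 and 1.76, 1.94 and 1.82 at P15, with no overlap between the ages. Among the beta subunits, the log2 ratio of Atp1b1 to Atp1b3 went from 4.03 ± 0.16 at P5 to 5.06 ± 0.10 at P15 (SD, n = 3, exact p = 0.021, adjusted p = 0.032). The ratio of Atp1b1 to Atp1b2 went from 2.64 ± 0.13 to 3.02 ± 0.09 (SD, n = 3, exact p = 0.018, adjusted p = 0.032), and it was 3.26 at P21 and 3.47 at P28. The ratio of Atp1b2 to Atp1b3 went from 1.40 ± 0.13 to 2.04 ± 0.05 (SD, n = 3, exact p = 0.021, adjusted p = 0.032). These 3 ratios of beta subunits missed the threshold without P10 replicate 1 (adjusted p = 0.054) or without P15 replicate 1 (adjusted p 0.064 to 0.068), and that of Atp1b1 to Atp1b2 also without P15 replicate 2 (adjusted p = 0.064), when 3, 3 and 5 pairs passed. The pairs of Atp2b1 with Atp2b3 (adjusted p = 0.11) and of Atp2b4 with Atp2b1 or Atp2b3 (adjusted p = 0.056 each) did not pass with all 9 libraries in the same exact permutation test. All 9 pairs passed without P10 replicate 3 and 8 without P10 replicate 2.

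**Figure D4:**
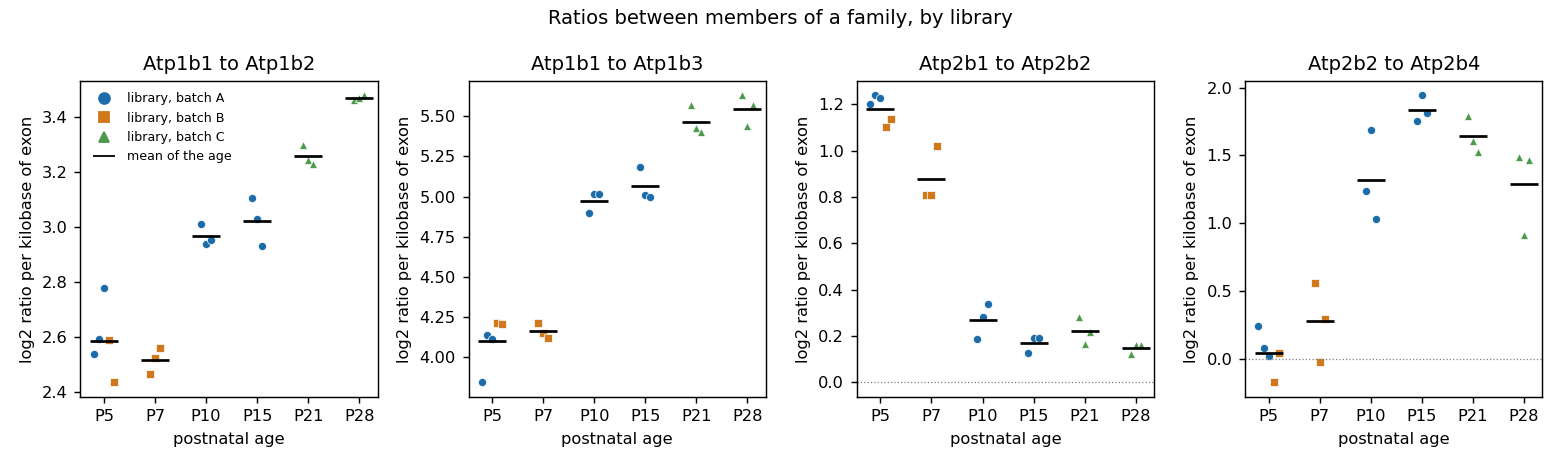
The log2 ratio per kilobase of exon is plotted for 4 pairs of genes against postnatal age, with a point for each of the 20 libraries (shape and colour give the batch) and a bar for the mean of the age. The ratio of Atp2b1 to Atp2b2 drops to between 0.12 and 0.34 from P10 on, and that of Atp1b1 to Atp1b2 reaches 3.47 at P28.

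The partners of these pumps were read from lists of other genes of the same pathways. Of 12 genes listed with the sodium pump (the remaining beta subunit, the FXYD regulators and the NKAIN proteins that bind beta subunits), 9 passed the filter on low counts. From P5 to P15, 1 rose and 4 fell, with a list median of -0.33 beside -0.02 over all genes, of which 31.6% rose and 31.8% fell. Fxyd1, a regulator of pump affinity, rose by 0.69 (SE 0.22, adjusted p = 0.0092). The 4 that fell were Fxyd6, Nkain1, Nkain3 and Fxyd5, the last not past the threshold without any 1 of 4 libraries (P5 replicates 1 and 2 of batch A, P15 replicates 1 and 3, -0.63 to -0.94). Of these Fxyd6 changed most (-2.06, SE 0.27, adjusted p = 1.4e-05), from 339.8 ± 32.9 CPM at P5 (SD, n = 5) to 80.0 ± 15.1 at P15 (SD, n = 3). Atp1b4 had 0 counts in every library, and Fxyd3 and Fxyd4 had at most 5.

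Of 14 genes for other routes of calcium removal, 12 were tested (Atp2a1 and Slc24a5 had at most 10 counts in any library). From P5 to P15, 7 rose and 3 fell, with a list median of 0.44, where 63.4% of all genes passed in either direction. The sodium-calcium exchangers of the plasma membrane, which spend the gradient that the sodium pump builds, went different ways. Slc8a2 rose from 568 ± 50.7 CPM at P5 (SD, n = 5) to 1204 ± 62.4 at P15 (SD, n = 3), a change of 1.18 (SE 0.07, adjusted p = 5.5e-13). Slc8a1 fell from 314 ± 20.6 to 122 ± 11.9 CPM (-1.34, SE 0.16, adjusted p = 4.6e-06), and Slc8a3 fell by 0.72 (SE 0.09, adjusted p = 2.6e-07). Of the exchangers that also carry potassium, Slc24a2 rose by 1.76 (SE 0.10, adjusted p = 3.8e-12), Slc24a3 by 0.64 and Slc24a4 by 0.87, while Slc24a1, with at most 26 counts in a library, fell. Atp2a2, which pumps calcium into the endoplasmic reticulum, rose by 0.62 (SE 0.06, adjusted p = 6.5e-09). The secretory pathway pumps Atp2c1 and Atp2c2 rose by 0.23 and 1.93, the latter from a low level (at most 66 counts in a library), and the change of Atp2c1 was 0.11 with total counts (adjusted p = 0.073).

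Of 7 listed partners of the calcium pumps, 5 were tested, and all 5 rose from P5 to P15, as did 31.6% of all genes, with a list median of 0.58. Nptn, which encodes neuroplastin, a membrane subunit of these pumps, rose by 0.97 (SE 0.06, adjusted p = 2.4e-13), from 392 ± 15.5 CPM at P5 (SD, n = 5) to 758 ± 14.9 at P15 (SD, n = 3). Bsg, which encodes its relative basigin, rose by 0.21 (SE 0.06, adjusted p = 0.0057), a call lost with total counts (0.09, adjusted p = 0.15) and without P15 replicate 1 (0.14, adjusted p = 0.069). Emb, a further relative at a low level, rose by 0.89 (SE 0.15, adjusted p = 1.9e-05). Calm2 and Calm3, which encode calmodulin, rose by 0.58 and 0.50 (adjusted p = 6.4e-08 and 2.4e-07). Pln and Sln, regulators of the endoplasmic reticulum pump in muscle, had at most 10 counts in any library.

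The course of each gene was also set beside all others, as the correlation of log2 CPM over the 20 libraries with each of 10596 genes of at least 5 CPM on average. Such values are a description, since the libraries share age, batch and depth. Atp2b2 was most like Lrrc4, which encodes an adhesion protein of excitatory synapses (r = 0.996), and then Kcnc4, a potassium channel subunit (0.995), and Rgs7bp (0.994). Atp1b1 was also most like Lrrc4 (0.994), followed by Arl8b and Slc1a1 (0.993 each), and the correlation of Atp1b1 with Atp2b2 was 0.989. Lrrc4 measured 88.0 ± 6.86 CPM at P5 (SD, n = 5) and 176 ± 7.30 at P10 (SD, n = 3). Atp1b2 was most like Dclk1 (0.958), Atp1b3 like Wsb2 and Wnt4 (0.942 each), Atp2b3 like Nup133 (0.95), Atp2b4 like Oprl1 (0.926) and Atp2b1 like Top1 (0.907). Among the 7 genes, the most opposed pair was Atp1b3 and Atp2b3 (r = -0.60), and Atp1b1 and Atp2b4 had r = -0.50.

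With the spectrin level of each library as a covariate, the P15 changes of Atp1b1, Atp1b2 and Atp2b2 were 1.02 (adjusted p = 0.00014), 0.66 (adjusted p = 0.0085) and 1.01 (adjusted p = 0.00016), and those of Atp2b3 and Atp2b4 missed the threshold (0.12, adjusted p = 0.71, and -0.15, adjusted p = 0.87). Both also missed it with the astrocyte sum as a covariate (0.12, adjusted p = 0.61, and -0.08, adjusted p = 0.92). At P10 Atp2b1 missed the threshold with either covariate, with a change no smaller than the 0.16 without one (0.20, adjusted p = 0.28, with the spectrin level and 0.16, adjusted p = 0.19, with the astrocyte sum). Atp2b3 at P10 missed it with 0.21 (adjusted p = 0.39) and 0.24 (adjusted p = 0.12), beside 0.34. At P28 the change of Atp1b2 was 0.24 with the spectrin level (adjusted p = 0.31), and that of Atp2b1 was 0.19 with the spectrin level (adjusted p = 0.36) and 0.14 with the astrocyte sum (adjusted p = 0.15), past the threshold in none of these fits though close to or above the values without a covariate. Fewer genes passed in these fits in general: from P5 to P10 22.6% of all genes did with the spectrin level and 38.7% with the astrocyte sum, and from P5 to P15 19.8% (11.9% higher and 7.98% lower) and 27.3% (15.7% higher and 11.5% lower). Of the pathway lists, with the spectrin level as a covariate 0 genes listed with the sodium pump rose and 2, Nkain1 and Nkain3, fell, 4 other calcium genes rose and 1 fell, and 2 partners rose. With the astrocyte sum these were 0 and 2, 4 and 2, and 3 and 0. Fxyd1, no longer past the threshold, had nearly the same change (0.69, adjusted p = 0.47, and 0.65, adjusted p = 0.39). The part of the other markers in these results was not tested.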

How the data were processed

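The 7 genes, the gene lists and the alternatives were chosen with earlier results of these data known. The authors deposited raw counts per gene symbol, 1 column for each of the 20 libraries, and no normalized values. The submitters' processing notes name STAR 2.7.5b, SAMtools 1.10, featureCounts and the genome build mm10. Which annotation and strand setting were used, and how multi-mapping reads were handled, is not given in the sources used here.

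The counts were fitted by edgeR 4.0.16 under R 4.3.3 (TMM factors, default filter on low counts by age leaving 15373 genes, robust quasi-likelihood fit, Benjamini-Hochberg adjustment over all genes tested). The model held 6 age means and a term for batch B and left 13 residual degrees of freedom. The biological coefficient of variation was 8.46%. A change is the later age minus the earlier one, and the SE was derived from the change and its F statistic (change over square root of F). The test was checked on simulated counts. CPM are counts relative to the TMM-scaled library total, and levels per kilobase use the union of exons in GENCODE vM21, in which 31424 of 32245 symbols (97.5%) were found. Exact permutation tests used scipy 1.17.1. Libraries of an age differed by more than sampling noise, and each was used as 1 sample. The chi-square statistic over its degrees of freedom was 3.70 to 21.2 for libraries of the same age and batch. It was 27.4 to 40.7 for P5 libraries of batch A against batch B. Genes named are the 7, list genes past the threshold from P5 to P15 or with few counts, and the 3 genes most like each of the 7. Alternatives were other scalings, filters, DESeq2 1.42.0, no batch term, single batches, a replicate block, 2 covariates and each library left out in turn. The same alternatives for the pathway lists were added after seeing the data. Some genes of these lists are not reported here, and the list counts leave them out.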

Additional observations from a re-analysis of the deposited data

Results flagged for a closer look

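In the P5 libraries the log2 ratio of Atp1b1 to Atp1b3 per kilobase was 3.84 in replicate 1 of batch A (3.844 to 3 decimals), well below the 4.12 to 4.21 of the other 4 libraries. Its gap to the nearest library exceeded the critical value of Dixon's test for 5 samples. In all 16 such groups were looked at (7 levels and 9 ratios at P5), and chance marks about 1 in 20. Without that library the change of this ratio from P5 to P15 was 0.94, and it passed (exact permutation test, adjusted p = 0.032).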

How the results depend on the processing

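DESeq2, DESeq2 size factors and both other filters kept the number of the 7 genes called within 1.5 times its value at every comparison run. With total counts as the scale, P7 against P5 had 1 call in place of 0. Without the batch term the calls were 2 for P7 against P5, 3 for P10 against P7, 3 for P10 against P5 and 4 for P28 against P5 (0, 5, 5 and 6 with it), and Atp2b3 at P10 against P7 changed sign (-0.266). Over all 15373 genes tested that fit called 3586, 7788, 9360 and 11083 in these comparisons, in place of 1698, 6578, 9442 and 11013. With the spectrin level as a covariate 3 genes were called at P10 and 3 at P15 against P5, and likewise 3 and 3 with the astrocyte sum, and Atp1b1, Atp1b2 and Atp2b2 were among them each time. The calls over all genes were fewer too, 3481 at P10 and 3049 at P15 with the spectrin level and 5946 and 4190 with the astrocyte sum, in place of 9442 and 9747. With batch C alone 1 gene, Atp1b2, was called at P28 against P21, where 277 of all 14056 genes tested were. With 1 library left out, calls ranged from 0 to 2 for P7 against P5, 3 to 5 for P10 against P7, 4 to 5 for P10 against P5, 0 to 1 for P15 against P10, 4 to 6 for P15 against P5, 2 to 4 for P21 against P15, 0 to 1 for P28 against P21, 5 to 6 for P28 against P5, and 6 to 7 for any age. Ratios past the threshold ranged from 3 to 9 of 9 in place of 6, and with P5 and P15 alone they were 0, since 3 libraries against 3 cannot give a p below 0.1. For P15 against P5, the calls over all genes were 3836 higher and 5961 lower with total counts, in place of 4856 and 4891, and the median change over all genes moved from -0.02 to -0.14. For P10 against P5 they were 3586 and 5956 in place of 4733 and 4709, for P7 against P5 545 and 2490 in place of 946 and 752, and for P28 against P21 17 and 16 in place of 10 and 29. The cause was not tested, other than for the ratios of P5 and P15 alone.

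The replicate numbers did not pair the libraries (median correlation of deviations -0.0168 over 55 pairs of the same number and 0.0277 over 110 pairs of different numbers), and 5 of 20 libraries were matched best by their own number. With the replicate number as a replicate block no call of the 7 genes changed, and the P15 against P5 changes were 1.05 for Atp1b1, 0.66 for Atp1b2, 1.17 for Atp2b2, 0.27 for Atp2b3 and -0.55 for Atp2b4. The joint test over ages was not run with DESeq2. Depth limited none of the 7 genes, whose lowest value was 33.5 CPM.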
